A study of Homo sapiens with 60 samples.

Results

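The 10 genes described here belong to the NRF2, thioredoxin and quinone defence system: NFE2L2 and KEAP1, TXN, TXNRD1, PRDX1 and SRXN1, NQO1 and HMOX1, and PIR and OSGIN1. They were chosen by symbol, and all 10 were found among the 60675 genes of the count table and among the 16166 genes that passed the filter on low counts. Messenger RNA was sequenced from HepG2 cells, a line derived from a human hepatocellular carcinoma, exposed for 24 h to the water extract of 1 herb or of 1 herbal formula. The extracts were Cinnamomi Cortex (cinnamon bark), Rehmanniae Radix Preparata, Cnidii Rhizoma and Astragali Radix, which are single herbs, and Sagunja-tang, Samul-tang and Palmul-tang, which are formulas of several herbs. Each of the first 6 has 3 libraries at each of 20, 100 and 500 µg/mL, and Palmul-tang has 1 library at each dose. The 3 vehicle libraries come from cells given dimethyl sulfoxide, given as 0.1% for each sample and as 2% in the description of the series. The treatment labels of the extract samples name a water extract and its dose, and do not say whether these cells also received dimethyl sulfoxide. A difference in solvent may thus be part of a comparison with vehicle and was not tested. All 60 libraries are from the same cell line and time point, and the labels do not say whether the 3 libraries of a group were separate cultures, so p-values rest on the spread among libraries alone, which may be technical.

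NRF2, the transcription factor encoded by NFE2L2, is made continuously and is normally destroyed because KEAP1 hands it to a ubiquitin ligase built on CUL3. Electrophiles and oxidants modify cysteines of KEAP1, NRF2 then accumulates and, paired with a small MAF protein, binds antioxidant response elements near its target genes. The control is thus largely at the level of the NRF2 protein, which messenger RNA does not show. Among the best known targets are the quinone reductase NQO1, the enzymes of the thioredoxin and glutathione cycles, and HMOX1, a gene that BACH1 represses at the same kind of element. In hepatocytes this system serves detoxification of drugs, plant compounds and reactive oxygen species.

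Library totals ran from 16484546 to 34412234 estimated reads. Levels are given as CPM, the count of a gene divided by its library's reads on tested genes, scaled by TMM, and brought to the usual common total. The TMM factors were 0.839, 0.834 and 0.863 with Cinnamomi Cortex at 500 µg/mL, against 1.03, 1.04 and 1.01 in vehicle. A lower factor raises the CPM of every gene in its library. All 8 hepatocyte markers were read in every library, from TTR at 125 to 334 CPM to APOB at 13400 to 19100 CPM, with ALB at 7810 to 12100 CPM and AFP at 10100 to 14600 CPM. With Cinnamomi Cortex at 500 µg/mL 5 of these 8 rose and 1 fell (median log2 fold change 0.45), beside 31.1% and 31.6% of all tested genes. Among them SERPINA1 (0.84 ± 0.075) and TTR (0.84 ± 0.060) were higher and APOB lower (-0.26 ± 0.057). Of 10 markers of other cell types, PTPRC was at 0 in 57 of 60 libraries, COL3A1 in 45 and KRT7 in 36. PECAM1, VWF, COL1A1 and LYVE1 were low, at no more than 5.28 CPM in any library. Others of the list were well read in every library, EPCAM at 95.4 to 162 CPM and ACTA2 at 51.7 to 73.8 CPM. The summed level of those 10 markers was 343 to 375 CPM with Cinnamomi Cortex at 500 µg/mL, against 243 to 255 CPM in vehicle, and CD68, which ranged from 46.5 to 150 CPM over all libraries, is among them. The sum joins opposite moves: of the 7 that were tested, 3 rose and 2 fell with this dose, with log2 fold changes from -1.91 to 1.28. The share of reads from mitochondrial genes was 19.4 to 22.3% with Cinnamomi Cortex at 500 µg/mL, against 14.4 to 16.7% in vehicle, and was highest in replicate 1 of Cnidii Rhizoma at 500 µg/mL, at 22.6%. The part of these shifts in the results was not tested.

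The sample codes place the extracts in numbered sets: Cnidii Rhizoma and Rehmanniae Radix Preparata in set 5, Cinnamomi Cortex and Astragali Radix in set 6, Sagunja-tang and Samul-tang in set 7, and Palmul-tang in set 8. The vehicle libraries carry no set number and serve all extracts, so in a comparison with vehicle a difference between sets and an effect of the extract cannot be told apart. A dose trend and a comparison of extracts that share a set use libraries of 1 set. In set 6, replicate 1 had the highest TXNRD1 and the highest SRXN1 of its group in 6 of 6 groups, and the lowest KEAP1 in 5 of 6. Results of set 6 that change without these libraries are given with both values.

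The regulatory sequence the system reads is shown first. Whether it bears on any of the changes below was not tested. RefSeq windows of 300 bases, from 250 before to 50 after a transcription start (GRCh38.p14), were found for 8 of the 10 genes, in 11 windows. The core of the antioxidant response element, TGACNNNGC read on either strand, was present in 4 of the 11 windows, belonging to TXNRD1, PIR and KEAP1, while 13.3% of 35116 promoter windows of the same length hold it. The windows with the most matches, and that of PIR, are printed 5′ to 3′ along the gene's strand with the matches in capitals. A match is a description of letters and not a binding site, and elements outside these windows were not searched.
TXNRD1 window (chr12:104215529-104215828, plus strand): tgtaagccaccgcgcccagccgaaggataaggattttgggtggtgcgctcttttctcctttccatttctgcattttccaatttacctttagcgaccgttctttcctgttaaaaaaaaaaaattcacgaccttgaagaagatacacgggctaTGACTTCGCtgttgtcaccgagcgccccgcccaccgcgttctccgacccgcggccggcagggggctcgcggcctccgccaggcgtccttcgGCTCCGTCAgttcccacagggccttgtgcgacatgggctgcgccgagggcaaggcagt
PIR window (chrX:15493284-15493583, minus strand): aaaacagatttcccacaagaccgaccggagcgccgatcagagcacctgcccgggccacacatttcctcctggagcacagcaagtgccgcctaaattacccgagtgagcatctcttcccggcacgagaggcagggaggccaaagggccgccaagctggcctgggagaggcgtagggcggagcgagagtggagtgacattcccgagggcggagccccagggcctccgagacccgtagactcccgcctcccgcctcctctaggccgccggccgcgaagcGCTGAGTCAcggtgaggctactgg
KEAP1 window (chr19:10502722-10503021, minus strand): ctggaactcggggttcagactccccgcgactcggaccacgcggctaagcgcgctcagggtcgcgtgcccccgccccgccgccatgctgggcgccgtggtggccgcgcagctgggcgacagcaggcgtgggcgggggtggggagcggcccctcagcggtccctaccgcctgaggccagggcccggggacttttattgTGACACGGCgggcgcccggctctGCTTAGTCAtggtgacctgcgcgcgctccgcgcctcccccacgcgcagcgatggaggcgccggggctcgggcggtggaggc

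The matches in the TXNRD1 window start at positions -99 and -8 from the transcription start, and a second TXNRD1 window holds 1 match at -102. The KEAP1 window, which belongs to a transcription start inside the gene, holds matches at -54 and -31. The PIR match lies at 27 after the start, and on its other strand it also spells TGACTCA, the site of AP-1 factors, so the letters serve both motifs. The windows found for NQO1, TXN, SRXN1, OSGIN1 and NFE2L2 do not contain these letters.

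In vehicle libraries the members covered a wide range of levels per kilobase of exon. PRDX1 was the most abundant at 272 CPM per kb, followed by NQO1 at 117 and TXN at 94.0 CPM per kb. SRXN1 stood at 38.3, NFE2L2 at 30.1, HMOX1 at 29.2 and TXNRD1 at 26.3 CPM per kb. The lowest were OSGIN1 at 13.4, KEAP1 at 11.8 and PIR at 6.37 CPM per kb. The ranges of the 3 vehicle libraries overlapped for NFE2L2 (28.3 to 31.4) and HMOX1 (28.2 to 31.0 CPM per kb), and no other neighbours in this order overlapped. The members were measured tightly: the standard deviation between libraries of a group lay between 0.059 and 0.096 on the log2 scale, against a median of 0.114 over all tested genes.

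With Cinnamomi Cortex at 500 µg/mL, 8 of the 10 genes rose against vehicle, where 31.1% of all tested genes rose and 31.6% fell. The median log2 fold change of the 10 genes was 0.80, against -0.02 over all tested genes. SRXN1 and OSGIN1 rose most, NQO1, HMOX1, TXN and TXNRD1 formed a narrow band below them, and PRDX1 and NFE2L2, the regulator itself, did not pass the test. The p-values below are from edgeR's quasi-likelihood test, adjusted by Benjamini-Hochberg over all 16166 genes, and a call is an adjusted p under 0.05. As these are bulk libraries, fewer cells with a transcript and less of it per cell cannot be told apart.

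The 2 genes of the control step behaved differently from each other. NFE2L2 (chromosome 2, 177227595 to 177392697, minus strand, GRCh38 as annotated in GENCODE release 29, like the positions that follow) was at 188, 178 and 176 CPM with Cinnamomi Cortex at 500 µg/mL, against 183, 169 and 188 CPM in vehicle. The groups overlapped fully, with a log2 fold change of 0.01 ± 0.050 (SE, adjusted p = 0.931). KEAP1 (chromosome 19, 10486120 to 10503741, minus strand), which encodes the protein that marks NRF2 for destruction, was at 53.5, 57.6 and 60.5 CPM, against 43.5, 47.0 and 42.5 CPM in vehicle. All 3 treated libraries lay above all vehicle libraries (0.37 ± 0.076, adjusted p = 4.19e-05). Exons of AGPS overlap NFE2L2 on the opposite strand, and AGPS carries 79.8% as many reads; the strand setting of the counting is not given in the sources used here, so reads of these genes may be mixed.

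The thioredoxin cycle passes electrons from NADPH through TXNRD1 and thioredoxin (TXN) to peroxiredoxins such as PRDX1, which reduce peroxides, and SRXN1 repairs peroxiredoxins that were over-oxidised. TXNRD1 (chromosome 12, 104215779 to 104350305, plus strand) was at 308, 304 and 306 CPM with Cinnamomi Cortex at 500 µg/mL, against 174, 179 and 176 CPM in vehicle. This is a log2 fold change of 0.80 ± 0.061 (adjusted p = 5.55e-16) between groups far apart relative to their spread. TXN (chromosome 9, 110243811 to 110256640, minus strand) reached 193, 204 and 197 CPM, against 111, 117 and 94.5 CPM in vehicle (0.88 ± 0.058, adjusted p = 1.62e-18). SRXN1 (chromosome 20, 646615 to 653370, minus strand) reached 240, 213 and 233 CPM, against 103, 108 and 98.4 CPM in vehicle, the highest fold of the 10 genes (2.22-fold, log2 1.15 ± 0.055, adjusted p = 1.1e-23). PRDX1 (chromosome 1, 45511036 to 45523047, minus strand), the most abundant of them, was at 437, 455 and 467 CPM, against 404, 425 and 412 CPM in vehicle. Its libraries did not overlap those of vehicle, but the log2 fold change of 0.13 ± 0.069 did not pass the test (adjusted p = 0.0952), as it did in a fit of only those groups (0.0192). The fold changes of the repair enzyme and the reductase were larger than that of the peroxidase they serve, a difference between genes that was not tested.

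NQO1, which reduces quinones to hydroquinones without a radical intermediate, and HMOX1, which opens heme to biliverdin with release of iron and carbon monoxide, rose by similar amounts. NQO1 (chromosome 16, 69706996 to 69726951, minus strand) was at 678, 672 and 704 CPM with Cinnamomi Cortex at 500 µg/mL, against 399, 384 and 362 CPM in vehicle (0.84 ± 0.050, adjusted p = 4.51e-20). HMOX1 (chromosome 22, 35380361 to 35394214, plus strand) was at 123, 120 and 125 CPM, against 74.5, 67.9 and 68.3 CPM in vehicle (0.81 ± 0.049, adjusted p = 1.02e-19). Neither gene had a treated library near the vehicle range. PIR encodes pirin, an iron-binding nuclear protein, and OSGIN1 a protein induced by oxidative stress that restrains growth. PIR (chromosome X, 15384799 to 15493564, minus strand) was at 24.7, 25.6 and 25.6 CPM, against 17.6, 15.5 and 14.9 CPM in vehicle (0.66 ± 0.068, adjusted p = 4.56e-12). OSGIN1 (chromosome 16, 83948282 to 83966332, plus strand) was at 95.2, 97.5 and 89.5 CPM, against 47.4, 47.4 and 44.8 CPM in vehicle (2.02-fold, log2 1.02 ± 0.072, adjusted p = 2.52e-17). For 9 of the 10 genes all libraries of Cinnamomi Cortex at 500 µg/mL lay above all vehicle libraries, as they did for 33.2% of the tested genes. This separation, and the size of small rises such as that of KEAP1, depend on the TMM factors, which are low at this dose. The 8 calls held without any 1 library.

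**Figure D1:**
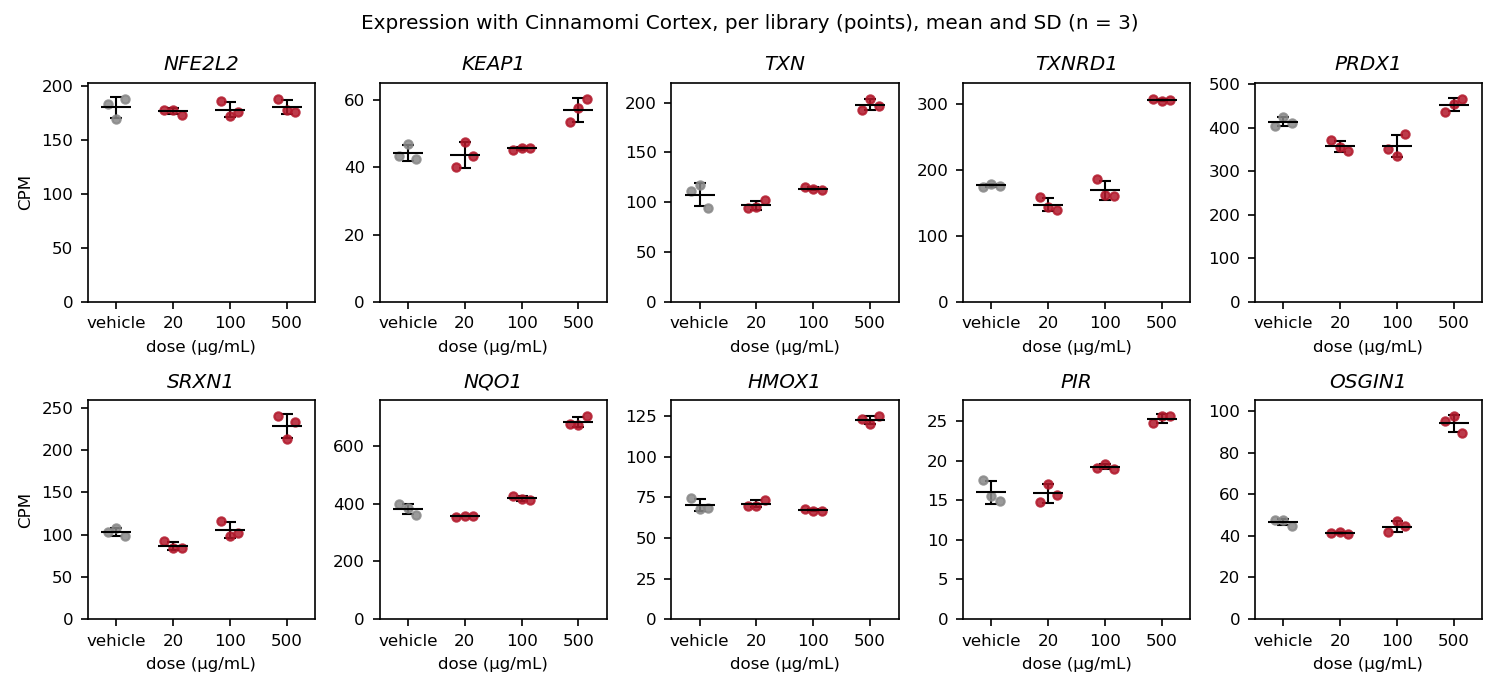
CPM of the 10 genes per library (points, linear axis from 0) in vehicle and with Cinnamomi Cortex at 20, 100 and 500 µg/mL, with the mean (wide bar) and SD (n = 3 per group). At 500 µg/mL every gene but NFE2L2 has its 3 libraries above the vehicle range. At 20 µg/mL NQO1 (356 to 357 CPM), TXNRD1 (139 to 159 CPM), SRXN1 (83.6 to 92.4 CPM), PRDX1 (347 to 371 CPM) and OSGIN1 (41 to 41.7 CPM) lie below it.

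The response to Cinnamomi Cortex had begun at 100 µg/mL for part of the genes when doses of the same set were compared. Against 20 µg/mL, 5 of the 10 genes were higher at 100 µg/mL, with 3.95% of all tested genes higher: SRXN1 by 0.29 ± 0.056 (adjusted p = 0.000311), PIR by 0.28 ± 0.069 (0.00515), NQO1 by 0.23 ± 0.050 (0.00111), TXN by 0.22 ± 0.059 (0.00904) and TXNRD1 by 0.20 ± 0.062 (0.035). HMOX1 did not pass, at 67.8, 66.8 and 66.8 CPM at 100 µg/mL, against 69.8, 69.9 and 73.5 CPM at 20 µg/mL. OSGIN1 did not pass either, at 41.7, 47.1 and 44.6 CPM at 100 µg/mL, against 41.2, 41.7 and 41.0 CPM at 20 µg/mL. For both genes the libraries above the vehicle range were those at 500 µg/mL. Without the replicate 1 libraries of set 6 the calls of TXNRD1 (adjusted p = 0.106), TXN (0.16) and PIR (0.0882) ended and 2 of 5 remained. The TXNRD1 call also ended without replicate 1 at 100 µg/mL (0.299) or replicate 2 (0.128) or 3 (0.211) at 20 µg/mL, the TXN call without replicate 1 (0.0581) or 2 (0.0507) at 20 µg/mL, and the PIR call without replicate 1 at 20 µg/mL (0.0553).

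The other 5 extracts changed 1 to 6 of the 10 genes at 500 µg/mL. PIR rose in all 5 and NQO1 in 4, HMOX1 in 2 and TXN and OSGIN1 in 1 each, while NFE2L2 fell in 3. Rehmanniae Radix Preparata raised 5 and lowered 1 of the 10 genes, with 3.87% of all tested genes higher and 3.57% lower. Samul-tang raised 3 and lowered 2 (7.45% of all tested genes higher and 6.24% lower), and Cnidii Rhizoma raised 2 and lowered 1 (6.11% and 5.66%). Sagunja-tang raised 2 (6.76% of all tested genes higher and 5.51% lower), and Astragali Radix raised 1, PIR (1.57%). The medians of the 10 log2 fold changes were 0.12 with Rehmanniae Radix Preparata, 0.11 with Sagunja-tang, 0.08 with Cnidii Rhizoma and 0.00 with Astragali Radix and Samul-tang, beside medians over all tested genes between -0.01 and 0.00.

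NQO1 differed between these extracts. At 500 µg/mL it was at 513, 579 and 527 CPM with Sagunja-tang, 488, 508 and 513 CPM with Rehmanniae Radix Preparata and 528, 462 and 473 CPM with Samul-tang, against 399, 384 and 362 CPM in vehicle. All 9 of these libraries lay above vehicle, and the log2 fold changes were 0.50 ± 0.050 (adjusted p = 5.97e-10), 0.40 ± 0.050 (3.43e-07) and 0.35 ± 0.050 (1.52e-06). With Cnidii Rhizoma it was at 392, 465 and 430 CPM, overlapping vehicle by 1 library, and with Astragali Radix at 394, 389 and 415 CPM. The Cnidii Rhizoma call (0.17 ± 0.050, adjusted p = 0.0198) ended without vehicle replicate 3 (0.134) or without its own replicate 2 (0.184) or 3 (0.0577), and in a fit of only the compared groups (0.2). The log2 fold change with Astragali Radix was 0.07 and did not pass the test. In the order of levels at 500 µg/mL, Cinnamomi Cortex stood apart above all, the ranges of Sagunja-tang, Rehmanniae Radix Preparata and Samul-tang met or overlapped, that of Cnidii Rhizoma overlapped those of Samul-tang, Astragali Radix and vehicle, and that of Astragali Radix overlapped vehicle.

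PIR was the one gene of the 10 that passed the test with every extract at 500 µg/mL, although it is the least abundant. It was at 24.4, 24.6 and 23.9 CPM with Rehmanniae Radix Preparata, against 17.6, 15.5 and 14.9 CPM in vehicle (0.60 ± 0.067, adjusted p = 2.5e-08). With Sagunja-tang it was at 22.1, 20.9 and 23.4 CPM (0.46 ± 0.067, 3.19e-06) and with Cnidii Rhizoma at 20.3, 21.1 and 21.1 CPM (0.38 ± 0.068, 0.000118). With Samul-tang it was at 20.0, 21.8 and 18.8 CPM (0.34 ± 0.068, 0.000495) and with Astragali Radix at 19.5, 19.7 and 20.7 CPM (0.32 ± 0.069, 0.00405). Every one of these 15 libraries lay above the highest vehicle library. The Astragali Radix call was lost in a fit of only the compared groups, at adjusted p = 0.051 and the same fold change.

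**Figure D2:**
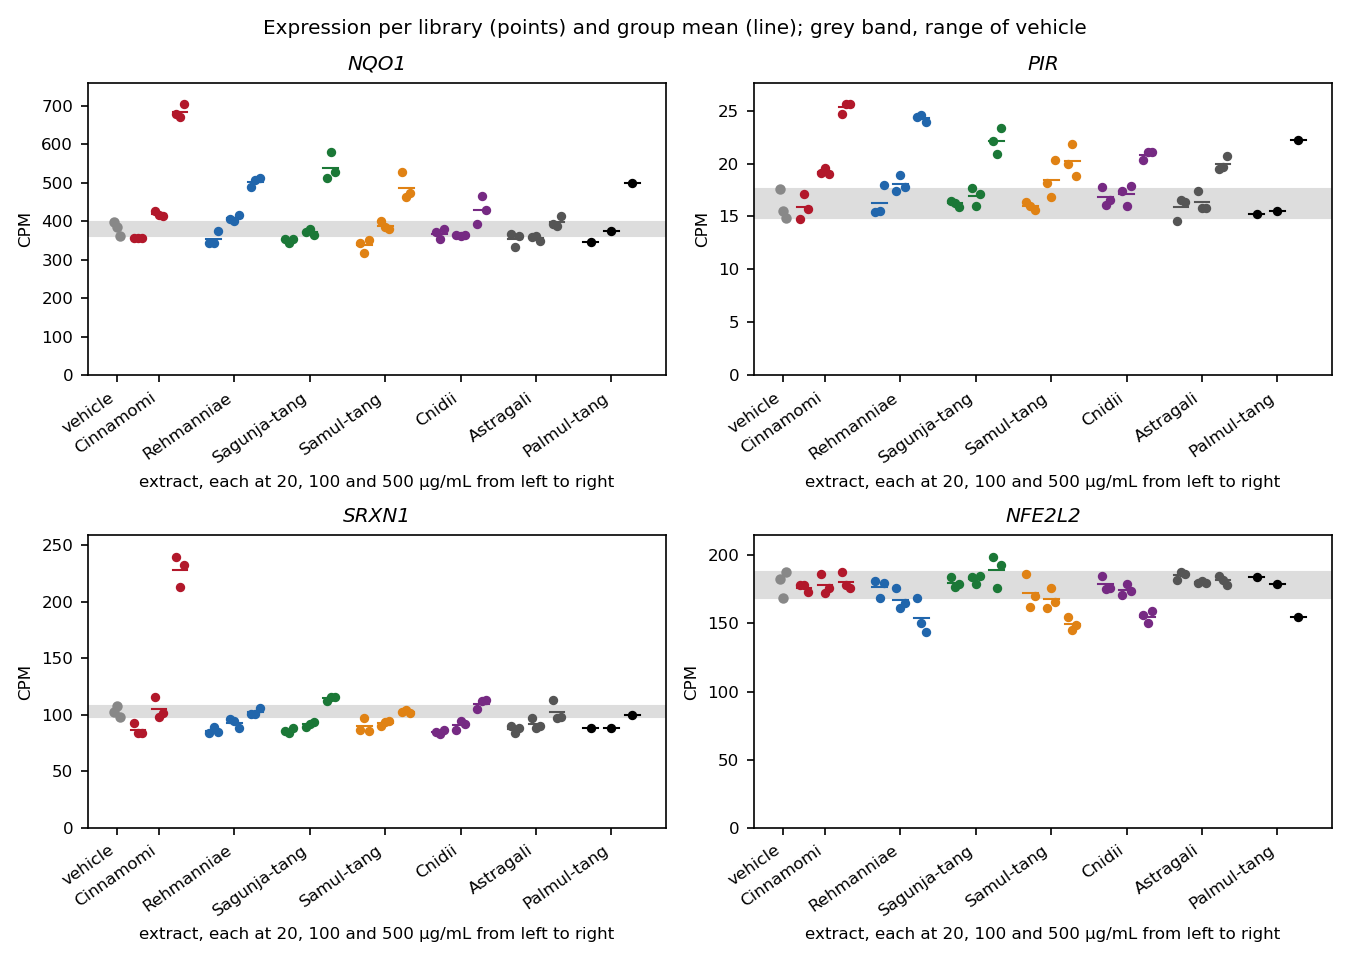
CPM of NQO1, PIR, SRXN1 and NFE2L2 per library (points, linear axis from 0) for vehicle and each extract at 20, 100 and 500 µg/mL from left to right, with short lines for group means and a grey band for the range of the 3 vehicle libraries. Palmul-tang has 1 library per dose. PIR lies above the band at 500 µg/mL with all extracts, and NFE2L2 at or below its lower edge with Rehmanniae Radix Preparata, Samul-tang and Cnidii Rhizoma.

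HMOX1 separated the extracts along another line. It was at 88.3, 81.5 and 87.6 CPM with Rehmanniae Radix Preparata at 500 µg/mL, against 74.5, 67.9 and 68.3 CPM in vehicle (0.29 ± 0.049, adjusted p = 9.93e-05). With Samul-tang it was at 85.2, 78.9 and 79.5 CPM (0.21 ± 0.049, 0.00238), again with no overlap with vehicle. With Sagunja-tang, where NQO1 was high, HMOX1 was at 65.2, 72.3 and 68.2 CPM and did not pass the test (-0.03 ± 0.049, 0.745). Cnidii Rhizoma (71.1, 73.0 and 62.3 CPM) and Astragali Radix (68.6, 71.6 and 69.4 CPM) overlapped the vehicle range, and their calls did not pass.

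NFE2L2 fell with 3 of the extracts at 500 µg/mL. It was at 155, 145 and 149 CPM with Samul-tang, against 183, 169 and 188 CPM in vehicle (-0.27 ± 0.050, adjusted p = 0.00016). With Cnidii Rhizoma it was at 156, 150 and 159 CPM (-0.22 ± 0.050, 0.00269) and with Rehmanniae Radix Preparata at 169, 150 and 144 CPM (-0.22 ± 0.050, 0.00306), where the first library lay within 1 CPM of the lowest vehicle library. The Cnidii Rhizoma call was lost in a fit of only the compared groups (adjusted p = 0.0564). AGPS is the overlapping gene on the other strand. Its log2 fold change was 0.23 with Samul-tang (adjusted p = 0.00436) and 0.26 with Sagunja-tang (0.0017). With Cnidii Rhizoma it was 0.03 (0.799), with Rehmanniae Radix Preparata 0.05 (0.649) and with Astragali Radix 0.105 (0.365). Whether reads mixed between AGPS and NFE2L2 have a part in these values was not tested. With Sagunja-tang NFE2L2 was at 199, 176 and 193 CPM (0.07 ± 0.049, 0.365), and with Astragali Radix at 185, 182 and 178 CPM (0.02 ± 0.050, 0.924).

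In the thioredoxin cycle, the 5 extracts left most genes short of the test against vehicle at 500 µg/mL. TXN was at 120, 125 and 124 CPM with Rehmanniae Radix Preparata, against 111, 117 and 94.5 CPM in vehicle (0.20 ± 0.058, adjusted p = 0.0285). That call ended without vehicle replicate 1 (0.0534) or 3 (0.291), without its own replicate 1 (0.0515), 2 (0.0922) or 3 (0.0781), and in a fit of only the compared groups (0.0937), and without vehicle replicate 3, the lowest for TXN, the log2 fold change was 0.11. PRDX1 fell with Samul-tang, to 370, 351 and 348 CPM, against 404, 425 and 412 CPM in vehicle (-0.22 ± 0.069, adjusted p = 0.0295). This call ended without vehicle replicate 2 (0.112) or 3 (0.0568) or without Samul-tang replicate 2 (0.0747) or 3 (0.109). TXNRD1 was at 200, 203 and 191 CPM and SRXN1 at 112, 116 and 116 CPM with Sagunja-tang, above every vehicle library, with log2 fold changes of 0.17 ± 0.061 (adjusted p = 0.0588) and 0.15 ± 0.055 (0.0596). Both passed under DESeq2 (0.0404 and 0.0383). OSGIN1 was at 55.7, 55.4 and 55.5 CPM with Rehmanniae Radix Preparata, against 47.4, 47.4 and 44.8 CPM in vehicle (0.26 ± 0.073, 0.022), a call that ended without vehicle replicate 1 (0.0595) or 3 (0.091) or without its own replicate 1 (0.0663), 2 (0.0576) or 3 (0.0566). KEAP1 did not pass the test with any of the 5, with log2 fold changes between -0.01 and 0.16.

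**Figure D3:**
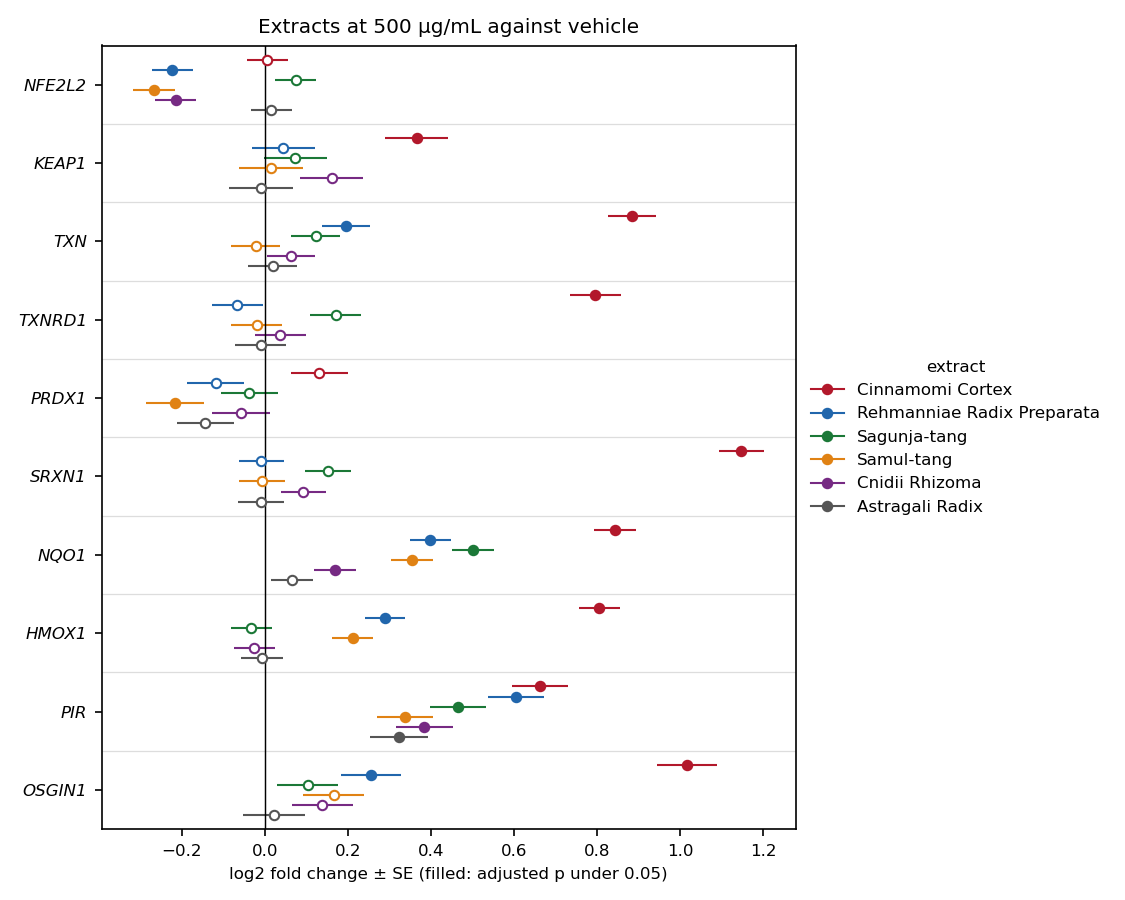
Log2 fold change against vehicle (x axis, points with SE bars) of each gene with each extract at 500 µg/mL, ordered by role from top to bottom. Filled points have an adjusted p under 0.05 (edgeR, n = 3 libraries per group). Cinnamomi Cortex reaches 1.15 for SRXN1, PIR is filled for all 6 extracts, and NFE2L2 is filled to the left of 0 for 3.

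The dose trends, which compare libraries of 1 set, called more of the 10 genes than the comparisons with vehicle. A trend is the linear log2 change per 5-fold dose step over 20, 100 and 500 µg/mL. Its estimate rests on the groups at 20 and 500 µg/mL, and the level at 100 µg/mL does not enter it. A called trend therefore does not show that the middle dose lies between the others. SRXN1 and PIR rose with dose in 6 of 6 extracts, NQO1 in 5, TXN, TXNRD1 and OSGIN1 in 4, HMOX1 in 3, and KEAP1 and PRDX1 with Cinnamomi Cortex alone among the calls. NFE2L2 fell with dose in 3 extracts. Per extract, 9 genes rose with Cinnamomi Cortex, where 30.6% of all tested genes did. The counts were 6 with Rehmanniae Radix Preparata (0.359% of all tested genes rose), 6 with Sagunja-tang (2.7%), 6 with Samul-tang (4.48%), 5 with Cnidii Rhizoma (1.35%) and 2 with Astragali Radix (0.322%). NFE2L2 was the gene that fell, in Rehmanniae Radix Preparata (0.315% of all tested genes fell), Samul-tang (5.4%) and Cnidii Rhizoma (1.86%).

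With Cinnamomi Cortex the steps were 0.70 ± 0.028 for SRXN1 (adjusted p = 9.12e-27), 0.59 ± 0.036 for OSGIN1 (1.46e-19), 0.53 ± 0.031 for TXNRD1 (3.44e-20) and 0.52 ± 0.029 for TXN (7.26e-21). NQO1 followed at 0.47 ± 0.025 (9.7e-22), HMOX1 at 0.39 ± 0.024 (2.82e-19), PIR at 0.34 ± 0.034 (2.98e-12), KEAP1 at 0.19 ± 0.038 (1.97e-05) and PRDX1 at 0.17 ± 0.035 (3.37e-05). PRDX1, which missed the test against vehicle, passed here. Its levels were 371, 355 and 347 CPM at 20 µg/mL, 352, 336 and 385 CPM at 100 µg/mL and 437, 455 and 467 CPM at 500 µg/mL, so the rise starts below the vehicle range of 404 to 425 CPM. Outside Cinnamomi Cortex the steepest steps were those of NQO1 with Sagunja-tang (0.31 ± 0.025, adjusted p = 1.02e-12), PIR with Rehmanniae Radix Preparata (0.29 ± 0.034, 2.25e-07), NQO1 with Samul-tang (0.27 ± 0.025, 1.01e-10) and NQO1 with Rehmanniae Radix Preparata (0.25 ± 0.025, 2.21e-09).

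NQO1 with Sagunja-tang was at 354, 345 and 354 CPM at 20 µg/mL, 373, 381 and 365 CPM at 100 µg/mL and 513, 579 and 527 CPM at 500 µg/mL. The 3 doses did not overlap, and most of the rise lay in the last step. With Rehmanniae Radix Preparata NQO1 was at 344, 344 and 375 CPM, then 405, 401 and 417 CPM, then 488, 508 and 513 CPM, a rise in both steps without overlap. SRXN1 with Cnidii Rhizoma was at 85.1, 82.8 and 86.5 CPM at 20 µg/mL, 87.0, 95.0 and 91.9 CPM at 100 µg/mL and 105, 112 and 113 CPM at 500 µg/mL (0.19 ± 0.028, adjusted p = 8.87e-06). With Sagunja-tang its step was 0.21 ± 0.028 (9.91e-07), and TXNRD1 had 0.20 ± 0.031 (1.97e-05) and TXN 0.16 ± 0.029 (0.000254). HMOX1 rose with dose with Rehmanniae Radix Preparata (0.14 ± 0.025, 0.000504) and Samul-tang (0.10 ± 0.025, 0.00833), as at 500 µg/mL.

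Several of the smaller trends rest on single libraries. With Astragali Radix the SRXN1 trend (0.11 ± 0.028, adjusted p = 0.0222) ended without replicate 1 at 500 µg/mL (0.299) or replicate 2 (0.152) or 3 (0.08) at 20 µg/mL, and the PIR trend (0.17 ± 0.035, 0.00417) without replicate 1 at 20 µg/mL (0.0582). Without the replicate 1 libraries of set 6 both were lost (0.15 and 0.107), which leaves 0 trends with this herb. With Cnidii Rhizoma the NQO1 trend (0.11 ± 0.025, 0.00639) ended without replicate 2 at 500 (0.0775) or 20 µg/mL (0.0628) and the NFE2L2 trend (-0.10 ± 0.025, 0.011) without replicate 1 at 20 µg/mL (0.0858). The OSGIN1 trend with Cnidii Rhizoma (0.13 ± 0.037, 0.0383) ended without any 1 of the 6 libraries at 20 or 500 µg/mL (0.0614 to 0.178). With Rehmanniae Radix Preparata the SRXN1 trend (0.13 ± 0.028, 0.00894) ended without replicate 1 (0.0685) or 3 (0.067) at 20 or replicate 3 at 500 µg/mL (0.0977), and the NFE2L2 trend (-0.10 ± 0.025, 0.0394) without replicate 1 (0.148) or 3 (0.144) at 20 or replicate 2 (0.181) or 3 (0.356) at 500 µg/mL. The NFE2L2 trend also missed the threshold with another scaling of the libraries, by relative log expression (0.0508). With Sagunja-tang the OSGIN1 trend (0.14 ± 0.037, 0.0141) ended without replicate 2 (0.0548) or 3 (0.0949) at 500 or replicate 2 at 20 µg/mL (0.106).

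With Samul-tang the trends of HMOX1, TXNRD1, TXN and SRXN1 ended without 1 library. HMOX1 was lost without replicate 1 at 500 µg/mL (adjusted p = 0.0771) and TXNRD1 (0.14 ± 0.031, 0.00233) without replicate 2 at 20 µg/mL (0.0715). TXN (0.09 ± 0.029, 0.0351) was lost without replicate 1 (0.217) or 2 (0.102) at 500 µg/mL or replicate 1 (0.0774) or 2 (0.134) at 20 µg/mL. SRXN1 (0.10 ± 0.028, 0.0209) was lost without replicate 1 (0.0681) or 3 (0.0612) at 500 or replicate 1 (0.0547) or 3 (0.06) at 20 µg/mL. In a fit of only the 3 Samul-tang groups, NQO1 was the 1 trend of 7 that passed. The trends of NQO1 and PIR with Samul-tang, Sagunja-tang and Rehmanniae Radix Preparata, and all 9 with Cinnamomi Cortex, kept their calls without any 1 library.

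**Figure D4:**
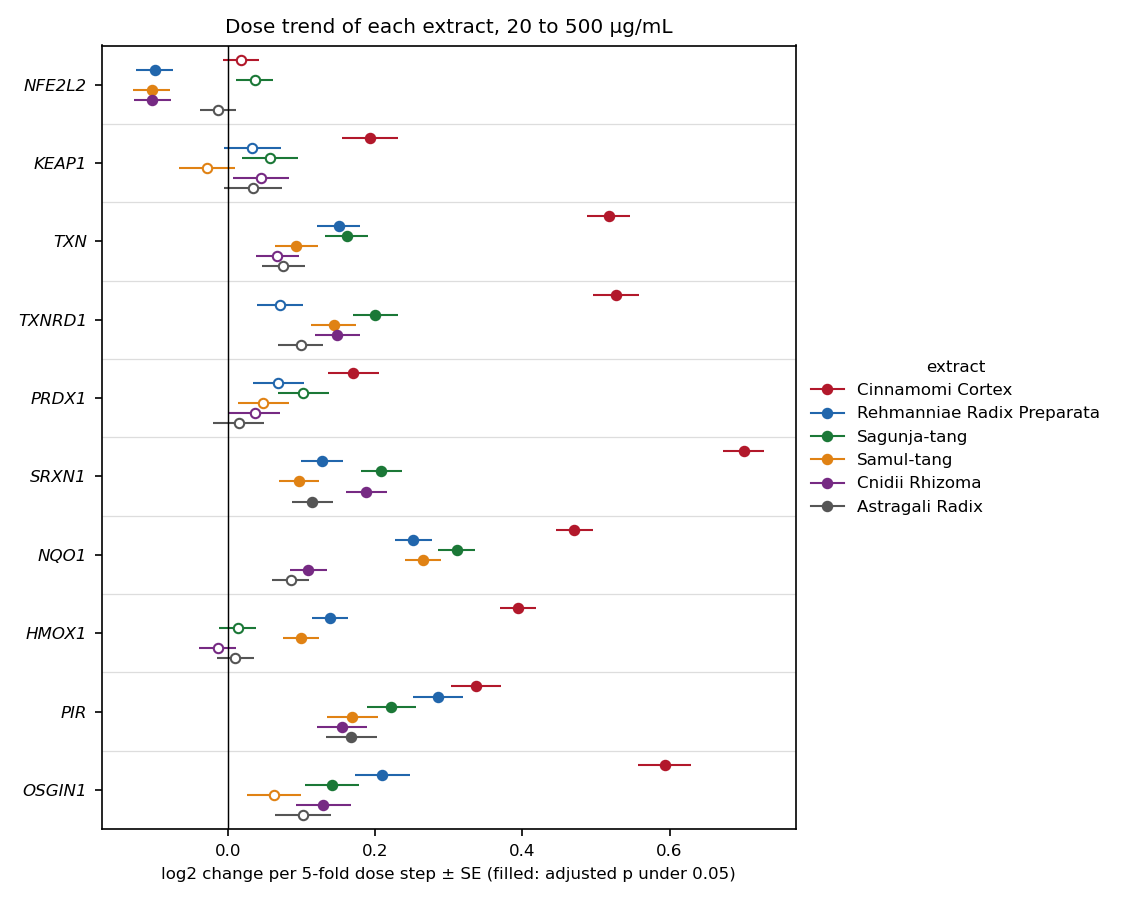
Linear dose trend of each gene with each extract, as log2 change per 5-fold dose step over 20, 100 and 500 µg/mL (x axis, points with SE bars, 9 libraries per extract). The estimate rests on the groups at 20 and 500 µg/mL. Filled points have an adjusted p under 0.05. Cinnamomi Cortex lies to the right of all other extracts for every gene but NFE2L2, for which 3 extracts lie to the left of 0 near -0.10.

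The trends of Cinnamomi Cortex were tested against those of each other extract. They were steeper for 9 of the 10 genes than with Astragali Radix of the same set, where 25% of all tested genes had a higher trend, and for SRXN1 the difference was 0.59 ± 0.039 (adjusted p = 1.13e-17). Across sets, they were higher for 10 genes than with Cnidii Rhizoma (24.7% of all tested genes), 10 than with Samul-tang (26.7%), 8 than with Rehmanniae Radix Preparata (23.6%) and 8 than with Sagunja-tang (24.5%). For PIR the difference was 0.12 ± 0.048 over Sagunja-tang (0.0403), and it was not called over Rehmanniae Radix Preparata. For NQO1 it was 0.16 ± 0.035 over Sagunja-tang (0.000159) and 0.38 ± 0.035 over Astragali Radix (3.99e-13). The PIR difference from Sagunja-tang and that of KEAP1 (0.14 ± 0.054, 0.0323) were lost without the replicate 1 libraries of set 6 (0.112 and 0.0747), as was that of KEAP1 from Cnidii Rhizoma (0.15 ± 0.054, 0.0196, then 0.0512). The PIR difference was also lost without replicate 1 or 3 of Cinnamomi Cortex at 20, replicate 2 or 3 of Cinnamomi Cortex at 500, or replicate 1 or 2 of Sagunja-tang at 20 or at 500 µg/mL (0.0571 to 0.125). The KEAP1 difference from Sagunja-tang was lost without the same Cinnamomi Cortex libraries, replicate 1 or 3 of Sagunja-tang at 500 or replicate 3 at 20 µg/mL (0.0532 to 0.13). KEAP1 from Cnidii Rhizoma was lost without replicate 1 of Cnidii Rhizoma at 500 (0.0913), replicate 1 of Cinnamomi Cortex at 20 (0.0768) or its replicate 3 at 500 µg/mL (0.0682). Without that replicate 1 at 20 µg/mL KEAP1 was also lost from Astragali Radix (0.0531) and Rehmanniae Radix Preparata (0.0529). Single libraries also ended the PRDX1 difference from Cnidii Rhizoma (0.0556 to 0.112) and from Samul-tang (0.0523 to 0.0779). PRDX1 passed from Rehmanniae Radix Preparata without its replicate 3 (0.0116) and from Sagunja-tang without its replicate 2 (0.0465) at 500 µg/mL.

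Extracts that share a set were compared at 500 µg/mL. Cinnamomi Cortex was higher than Astragali Radix for 9 of the 10 genes, where 30.9% of all tested genes were higher, with NFE2L2 the exception (-0.01 ± 0.050, adjusted p = 0.877). The differences were 1.16 ± 0.055 for SRXN1, 0.99 ± 0.073 for OSGIN1, 0.78 ± 0.050 for NQO1, 0.34 ± 0.068 for PIR (2.26e-05) and 0.27 ± 0.069 for PRDX1 (0.000603). Cnidii Rhizoma was lower than Rehmanniae Radix Preparata for HMOX1 (-0.31 ± 0.050, 0.000101) and NQO1 (-0.23 ± 0.050, 0.0108), 2 of the 10 genes, where 0.353% of all tested genes were lower. Samul-tang was higher than Sagunja-tang for HMOX1 (0.24 ± 0.049, 0.00474), where 0.507% of all tested genes were higher, and lower for NFE2L2 (-0.34 ± 0.050, 3.54e-05), where 0.377% were lower. HMOX1 did not overlap in either pair, at 62.3 to 73.0 CPM with Cnidii Rhizoma, against 81.5 to 88.3 CPM with Rehmanniae Radix Preparata, and at 78.9 to 85.2 CPM with Samul-tang, against 65.2 to 72.3 CPM with Sagunja-tang. NQO1 between Cnidii Rhizoma and Rehmanniae Radix Preparata was lost without replicate 1 (0.129) or 3 (0.0591) of Cnidii Rhizoma or replicate 2 (0.0677) or 3 (0.0526) of Rehmanniae Radix Preparata, and HMOX1 between the formulas without replicate 1 of Samul-tang (0.0574) or of Sagunja-tang (0.0575). In fits of only the compared groups these 4 calls did not pass (0.169 and 0.39 for HMOX1 and NQO1 in the first pair, 0.364 and 0.0977 for HMOX1 and NFE2L2 in the second).

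At 20 µg/mL, the lowest dose, TXNRD1 and SRXN1 were lower than in vehicle with 6 of 6 extracts. TXNRD1 was at 134 to 165 CPM in the 18 libraries at this dose, against 174 to 179 CPM in vehicle, and SRXN1 at 82.8 to 97.1 CPM, against 98.4 to 108 CPM in vehicle. Neither gene had a library at 20 µg/mL within the vehicle range, nor did PRDX1, at 330 to 403 CPM, against 404 to 425 CPM in vehicle. All libraries at this dose lay below all vehicle libraries for 5 genes with Cinnamomi Cortex (13.6% of all tested genes) and 5 with Sagunja-tang (16.5%). Counts were 4 each with Astragali Radix (11%), Cnidii Rhizoma (13.8%) and Samul-tang (13.9%) and 3 with Rehmanniae Radix Preparata (12.2%). With each of these extracts 0 genes lay above. The log2 fold changes lay between -0.31 and -0.21 for TXNRD1 and between -0.28 and -0.20 for SRXN1. PRDX1 fell with 3 extracts, Samul-tang (-0.31 ± 0.069, adjusted p = 0.00108), Rehmanniae Radix Preparata (-0.25 ± 0.069, 0.0167) and Sagunja-tang (-0.24 ± 0.069, 0.016), and its values for the other 3 were between -0.21 and -0.13. TXN fell with Samul-tang (-0.21 ± 0.058, 0.00853) and Sagunja-tang (-0.20 ± 0.058, 0.0185), and NQO1 with Samul-tang (-0.18 ± 0.050, 0.00937). HMOX1 and PIR lay between -0.06 and 0.07, NFE2L2 and KEAP1 between -0.08 and 0.07 and OSGIN1 between -0.18 and 0.04, without a call.

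The counts of genes that fell were 5 of 10 with Samul-tang (9.9% of all tested genes fell), 4 with Sagunja-tang (5.13%), 3 with Rehmanniae Radix Preparata (3.04%), 2 with Cinnamomi Cortex (3.28%), 2 with Cnidii Rhizoma (2.96%) and 2 with Astragali Radix (1.37%). All 6 comparisons share the same 3 vehicle libraries, so they are not independent. A difference between the vehicle libraries and the sets, or in solvent, cannot be told apart from an effect of the extracts. The comparator sets the sign at 500 µg/mL for some extracts: with Samul-tang SRXN1 was at -0.01 against vehicle and at 0.24 when all 6 low-dose groups together served as comparator, and TXNRD1 at -0.02 and 0.23. In a fit of only Samul-tang at 20 µg/mL and vehicle, PRDX1 was the 1 gene of 5 that passed. Without vehicle replicate 3 TXN also passed as lower with Cinnamomi Cortex (0.0117), Astragali Radix (0.0275) and Rehmanniae Radix Preparata (0.0423). Single libraries ended some calls: TXNRD1 with Cinnamomi Cortex without replicate 3 (adjusted p = 0.0737), TXNRD1 with Astragali Radix without vehicle replicate 1, 2 or 3 (0.0888, 0.142 and 0.0833) or its own replicate 2 (0.253) or 3 (0.161), and SRXN1 with Astragali Radix without vehicle replicate 2 (0.0755) or its own replicate 2 (0.0679). With Rehmanniae Radix Preparata TXNRD1 was lost without vehicle replicate 1, 2 or 3 (0.0625, 0.0995 and 0.0589) or its own replicate 1 (0.0661) or 2 (0.133), and PRDX1 without vehicle replicate 2 (0.0764) or its own replicate 1 (0.078) or 2 (0.0665). With Sagunja-tang TXN was lost without vehicle replicate 1 (0.0827) or 2 (0.212) or its own replicate 1 (0.0866) or 3 (0.0554), and PRDX1 without vehicle replicate 2 (0.0766) or its own replicate 1 (0.0576) or 2 (0.056). With Samul-tang NQO1 was lost without vehicle replicate 1 (0.0725) or its own replicate 2 (0.0923), TXN without vehicle replicate 2 (0.113) and SRXN1 without vehicle replicate 2 (0.0604). TXNRD1 with Cnidii Rhizoma (-0.26 ± 0.062, adjusted p = 0.00603), with Sagunja-tang (-0.23 ± 0.062, 0.0102) and with Samul-tang (-0.31 ± 0.062, 0.000379) kept its call without any 1 library.

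**Figure D5:**
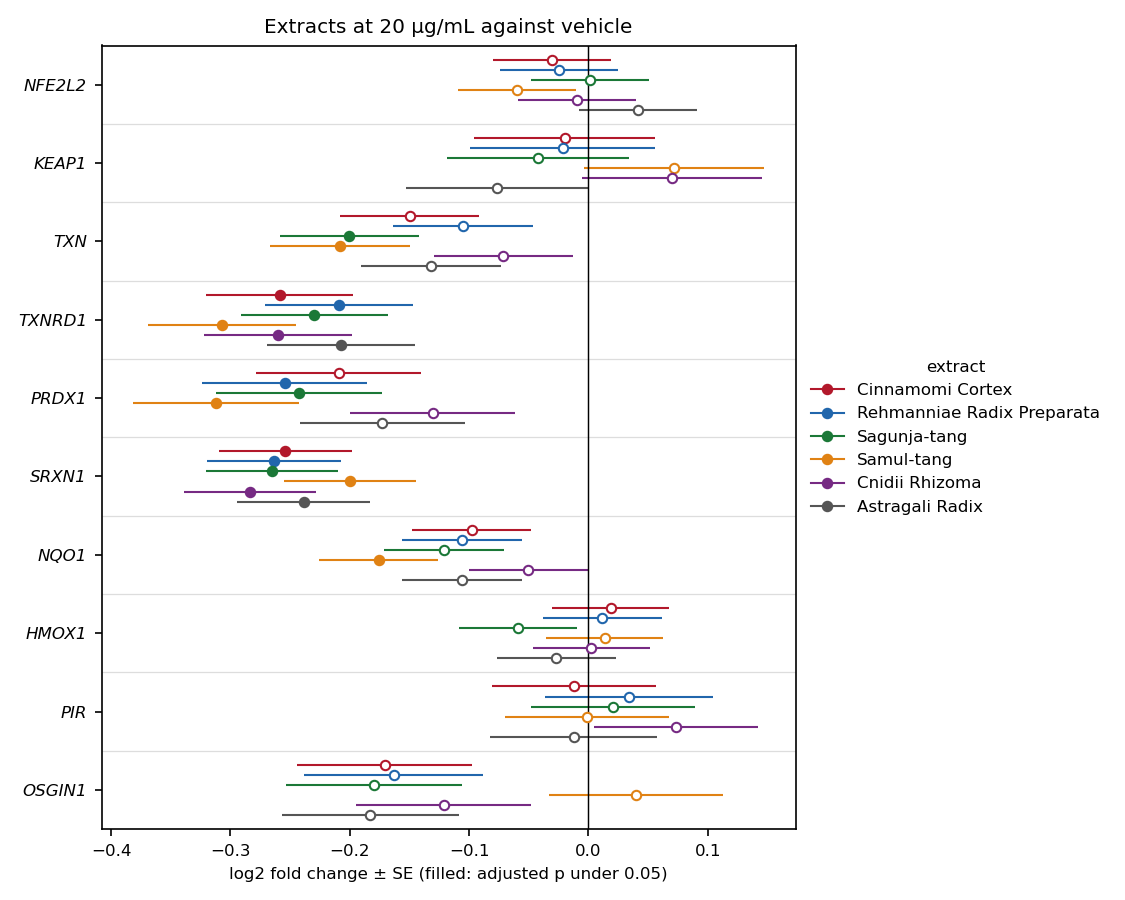
Log2 fold change against vehicle (x axis, points with SE bars) of each gene with each extract at 20 µg/mL. Filled points have an adjusted p under 0.05 (edgeR, n = 3 libraries per group, 1 shared set of vehicle libraries). All 6 points of TXNRD1 and of SRXN1 are filled and lie between -0.31 and -0.20, while those of HMOX1, PIR, NFE2L2 and KEAP1 lie between -0.08 and 0.07 and are open.

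At 100 µg/mL few of the 10 genes were called against vehicle. PRDX1 lay at log2 fold changes of -0.25 to -0.18 over the 6 extracts tested. All libraries lay below all vehicle libraries for 6 genes with Astragali Radix (10.8% of all tested genes) and 4 with Sagunja-tang (15%). Counts were 3 each with Cnidii Rhizoma (12.1%), Rehmanniae Radix Preparata (12%) and Samul-tang (15.3%), and 2 with Cinnamomi Cortex (17.2%). Above lay 2 with Cinnamomi Cortex (16.9%), 1 with Rehmanniae Radix Preparata (12.2%) and 1 with Samul-tang (15.1%). With Cinnamomi Cortex PIR rose (0.27 ± 0.069, adjusted p = 0.00341) at 19.1, 19.6 and 19 CPM, against 17.6, 15.5 and 14.9 CPM in vehicle, and NQO1 rose at the edge of the threshold (0.14 ± 0.050, 0.0493), where 10.1% of all tested genes rose. PRDX1 fell with Cinnamomi Cortex (-0.21 ± 0.069, 0.0256, 9.36% of all tested genes fell), Sagunja-tang (-0.24 ± 0.069, 0.0211, 3.54%) and Samul-tang (-0.25 ± 0.069, 0.02, 3.67%). SRXN1 fell with Sagunja-tang (-0.17 ± 0.055, 0.0409), TXNRD1 with Cnidii Rhizoma (-0.23 ± 0.062, 0.0268, 1.43%), and PIR rose with Samul-tang (0.21 ± 0.068, 0.0484, 4.42%). With Rehmanniae Radix Preparata and Astragali Radix edgeR called 0 of the 10 (4.16% and 2.28% of all tested genes), DESeq2 also called 0, and 5 of the 10 had an unadjusted p under 0.05 with each. The call of PIR with Cinnamomi Cortex held without any 1 library. Without the replicate 1 libraries of set 6 the calls of NQO1 (0.161) and PRDX1 (0.0861) with Cinnamomi Cortex ended, and SRXN1 with Astragali Radix passed (-0.21, 0.0105), as it did without its own replicate 1 (0.0483). NQO1 with Cinnamomi Cortex also ended without vehicle replicate 2 (0.0819) or 3 (0.241) or its own replicate 1 (0.139), 2 (0.0928) or 3 (0.0791), and PRDX1 without vehicle replicate 2 (0.0951) or 3 (0.0532) or its own replicate 1 (0.0732) or 2 (0.155). TXNRD1 with Cnidii Rhizoma ended without any 1 of its 3 libraries or of the vehicle libraries (0.0548 to 0.147). With Sagunja-tang SRXN1 ended without vehicle replicate 1 (0.098) or 2 (0.214) or any 1 of its own libraries (0.0664 to 0.171), and PRDX1 without vehicle replicate 2 (0.0929) or its own replicate 1 (0.154) or 3 (0.0822). With Samul-tang PRDX1 ended without vehicle replicate 2 (0.085) or its own replicate 2 (0.106) or 3 (0.0794), and PIR without vehicle replicate 2 (0.168) or 3 (0.206) or its own replicate 1 (0.0873) or 3 (0.351). Without vehicle replicate 3, the lowest for TXN and SRXN1, TXN passed as lower with Astragali Radix (0.0452), Sagunja-tang (0.00434, and 0.0438 without its own replicate 2) and Samul-tang (0.0117), and SRXN1 with Cnidii Rhizoma (0.0487).

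Palmul-tang, the formula that combines the herbs of Sagunja-tang and Samul-tang, has 1 library per dose and no test, and its values stand beside the vehicle libraries without a replicate check. None of the 10 genes was 1.5-fold or more away from the vehicle mean at any dose, while 3.46%, 4.11% and 3.72% of all tested genes were at least 1.5-fold higher at 20, 100 and 500 µg/mL, and 2.96%, 3.92% and 3.33% lower. At 500 µg/mL NQO1 was at 500 CPM, PIR at 22.2 CPM and HMOX1 at 78.9 CPM, each above the highest vehicle library (399, 17.6 and 74.5 CPM). OSGIN1 at 48.8 CPM and KEAP1 at 47.7 CPM also lay above it (47.4 and 47 CPM). NFE2L2 was at 155 CPM, PRDX1 at 364 CPM and TXNRD1 at 170 CPM, each below the lowest vehicle library (169, 404 and 174 CPM). At 20 µg/mL 6 of the 10 genes lay below the lowest vehicle library and 0 above the highest. These were TXNRD1 at 148, SRXN1 at 88.2, PRDX1 at 344, NQO1 at 346, TXN at 88.5 and OSGIN1 at 44.5 CPM. Their lowest vehicle libraries were at 174, 98.4, 404, 362, 94.5 and 44.8 CPM. At 100 µg/mL 4 genes lay below, among them PRDX1 at 308 CPM, and 0 above. The share of all tested genes beyond the vehicle range was not counted for these single libraries, so whether these counts are unusual for a gene is not known.

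The wider system was read from 57 genes in 4 groups by role, of which 55 were tested. With Cinnamomi Cortex at 500 µg/mL 36 rose and 10 fell, beside 31.1% and 31.6% of all tested genes, with a median log2 fold change of 0.45. Of 11 regulators 7 rose and 2 fell: SQSTM1, whose protein takes KEAP1 to autophagy, was at 766, 808 and 841 CPM, against 175, 177 and 168 CPM in vehicle (2.22 ± 0.046, adjusted p = 1.85e-37). MAFF, a small MAF partner of NRF2, was at 24.9, 27.8 and 24.1 CPM, against 6.54, 7.97 and 7.17 CPM in vehicle (1.82 ± 0.086), and MAFG (0.55 ± 0.057), the repressor BACH1 (0.62 ± 0.072) and the related factor NFE2L1 (0.82 ± 0.039) rose by less. MAFF, MAFG and BACH1 thus passed the test, while NFE2L2 itself was at 0.01 ± 0.050 (SE).

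Of 16 further thioredoxin and peroxiredoxin genes 9 rose and 2 fell with Cinnamomi Cortex at 500 µg/mL. Glutaredoxin GLRX, which reduces mixed disulphides of glutathione, rose most, to 169, 168 and 179 CPM, against 46.6, 48.0 and 48.5 CPM in vehicle (1.85 ± 0.059, adjusted p = 1.58e-30). SESN2 (0.87 ± 0.061), PRDX5 (0.76 ± 0.080) and TXNIP, which binds and inhibits thioredoxin (0.30 ± 0.042), also rose. Of 15 tested genes for quinones, heme, iron and aldehydes 11 rose and 4 fell, with AKR1B10 (2.29 ± 0.067), AKR1C1 (1.40 ± 0.053) and ferritin heavy chain FTH1 (1.01 ± 0.066) at the lowest adjusted p. Of 13 tested glutathione and NADPH genes 9 rose and 2 fell: the cystine carrier SLC7A11 was at 134, 151 and 151 CPM, against 29.6, 28.4 and 29.6 CPM in vehicle (2.32 ± 0.070), and GCLC, the catalytic subunit of the first step of glutathione synthesis, rose by 1.47 ± 0.043. GSTA1, a glutathione transferase of hepatocytes, fell to between 7.44 and 10.3 CPM, against 38.1, 37.9 and 34.7 CPM in vehicle (-2.05 ± 0.098, adjusted p = 1.39e-23). AKR1C1 and GSTA1 have near-identical relatives, so their estimated counts are less certain.

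With the other extracts at 500 µg/mL fewer of the wider system were called. Of the 55 genes 19 rose and 3 fell with Cnidii Rhizoma, 17 and 2 with Rehmanniae Radix Preparata, 15 and 7 with Sagunja-tang and 14 and 6 with Samul-tang, and 5 rose with Astragali Radix, beside the shares of all tested genes given above for each. Of the 15 quinone, heme and aldehyde genes and the 13 glutathione genes, 8 and 7 rose with Cnidii Rhizoma, 8 and 6 with Rehmanniae Radix Preparata, 7 and 7 with Sagunja-tang, 5 and 4 with Samul-tang and 3 and 2 with Astragali Radix. In the same order of groups, 0 and 1 fell with Cnidii Rhizoma, 1 and 1 with Sagunja-tang and 0 and 2 with Samul-tang. With Rehmanniae Radix Preparata and Astragali Radix 0 and 0 fell. Of the 11 regulators 5 rose with Samul-tang, 3 with Rehmanniae Radix Preparata, 2 with Cnidii Rhizoma and 1 with Sagunja-tang, and 1 fell with Samul-tang and 1 with Sagunja-tang. The difference between role groups was not tested. Of the 16 thioredoxin and peroxiredoxin genes 2 rose and 2 fell with Cnidii Rhizoma, and 2 fell with Rehmanniae Radix Preparata, 4 with Sagunja-tang and 3 with Samul-tang. AKR1B10 rose with all 5, by 1.04 ± 0.067 with Cnidii Rhizoma, 0.96 ± 0.067 with Sagunja-tang, 0.68 ± 0.068 with Rehmanniae Radix Preparata, 0.55 ± 0.068 with Samul-tang and 0.39 ± 0.069 with Astragali Radix. AKR1B10 was thus highest with Cnidii Rhizoma among them, where NQO1 (0.17) was near the bottom, and the order of extracts is not the same for both genes.

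Across the 19 group means of log2 CPM the 10 genes did not all follow the same profile. These correlations are descriptions, since the groups share sets and vehicle and 3 of the 19 are doses of Cinnamomi Cortex. TXNRD1 and SRXN1 were most alike (Pearson r = 0.983, and 0.944 over the 16 groups without Cinnamomi Cortex). NQO1 and PIR kept their likeness without that extract (0.927 and 0.913), while HMOX1 and TXNRD1 lost theirs (0.793 and 0.101). HMOX1 and NFE2L2 ran opposite without it (-0.207 over 19 and -0.763 over 16 groups). KEAP1 and HMOX1 also lost their likeness without that extract (0.741 over 19 and 0.125 over 16 groups).

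Among 11942 genes with a mean of at least 2 CPM, those most like NQO1 were MGST1 (r = 0.947), GCLM (0.934), AKR1B10 (0.928), PIR (0.927) and NECAP1 (0.916). Without Cinnamomi Cortex their values ran from 0.826 to 0.913. Those most like TXNRD1 were SRXN1 (0.983), PWP1 (0.972), GLA (0.961), DCUN1D5 (0.955) and RAB5IF (0.953), with 0.797 to 0.944 without Cinnamomi Cortex. Among those most like HMOX1 were ZNF703 (0.939), VAT1 (0.935), FADS3 (0.932) and MVP (0.931), with 0.643 to 0.723 without it. PIR is among the 5 genes most like NQO1 and SRXN1 among those most like TXNRD1, while the 4 named for HMOX1 are from outside the 10.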

How the data were processed

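Messenger RNA of HepG2 cells was sequenced as 100 bp paired ends from libraries of a directional kit, per the labels' protocols. Per the submitters' processing notes the tools were RSEM 1.3.3, STAR 2.7.3a, FastQC 0.11.9 and Trim Galore 0.6.5, on the build GRCh38; annotation release and strand setting are not given in the sources used here. The authors' deposited values are expected counts per gene, judged from the values themselves to be free of scaling for depth or length, and 8.58% of them are not whole. Of its 270 columns 60 were mapped to samples by code and label and used, and 210 were not.

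Rounded counts went into edgeR 4.0.16 under R 4.3.3 (filterByExpr, TMM factors 0.834 to 1.05, 1 two-sided quasi-likelihood model with a mean for each of 19 groups in 57 libraries, Benjamini-Hochberg over 16166 genes, threshold 0.05). Palmul-tang, with 1 library per dose, stayed outside the model; its log2 ratios use a prior count of 2. Symbols, positions and exon lengths came from GENCODE release 29, which holds 57055 of the 60675 IDs, and promoter windows from RefSeq. RSEM shares reads between similar genes; NQO1 had counts that were not whole in 100% of libraries and PRDX1 and NFE2L2 in 96.7%, while pseudogenes of the 10 held at most 0.0208% of their reads. The tests were checked on simulated counts, drawn with the spread estimated from these data, few genes changed and no difference between sets. That check does not cover differences between sets and vehicle, or a comparison in which many genes change.

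All 10 genes are named; of each role group the 3 genes with the lowest adjusted p with Cinnamomi Cortex at 500 µg/mL are named, with TXNIP, BACH1, MAFG and SQSTM1, and AKR1B10 was followed over the other extracts after its values were seen. For NQO1, TXNRD1 and HMOX1 the 5 genes with the highest Pearson r over group means are named, except 1 that is not reported here. The genes, groups and alternatives were chosen with earlier results of these data known. Alternatives were DESeq2 1.42.0, relative log expression scaling, no filter on low counts, a replicate block, only the compared groups in a fit, another comparator, and leaving out libraries.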

Additional observations from a re-analysis of the deposited data

Results flagged for a closer look

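The dose trends of Cinnamomi Cortex differed from those of the other extracts in a test of the difference itself, edgeR's quasi-likelihood test of one trend minus the other (n = 3 libraries per dose). Trends differed for 9 of the 10 genes from Astragali Radix, 10 from Cnidii Rhizoma, 8 from Rehmanniae Radix Preparata, 8 from Sagunja-tang and 10 from Samul-tang, each time with the Cinnamomi Cortex trend the higher, beside 25%, 24.7%, 23.6%, 24.5% and 26.7% of all tested genes with a higher trend. Only the first comparison lies within 1 set. NFE2L2, which did not rise with Cinnamomi Cortex, is in the counts for Cnidii Rhizoma, Rehmanniae Radix Preparata and Samul-tang because it fell with dose there. What moved with the Cinnamomi Cortex doses, a mitochondrial read share of 15.9 to 16.9% at 20, 17.7 to 19.7% at 100 and 19.4 to 22.3% at 500 µg/mL, was not tested for its part in these trends.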

How the results depend on the processing

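The counts of the 10 genes called with Cinnamomi Cortex at 500 µg/mL (8), in its dose trend (9) and against Astragali Radix at 500 µg/mL (9) were the same without any 1 library. Without the replicate 1 libraries of set 6 the count with Cinnamomi Cortex was 1 at 100 µg/mL against vehicle (3 with them) and 2 for 100 against 20 µg/mL (5), and with Astragali Radix 1 at 100 µg/mL (0) and 0 for the trend (2). In fits of only the compared groups, counts were 4 for Cinnamomi Cortex at 20 µg/mL (2 in the full fit), 0 and 1 for Astragali Radix at 500 and 20 µg/mL (1 and 2) and 1 for its trend (2), 1 and 2 for Cnidii Rhizoma at 500 and 100 µg/mL (3 and 1), 1 and 1 for Samul-tang at 20 µg/mL and its trend (5 and 7), and 0 for Cnidii Rhizoma against Rehmanniae Radix Preparata and for Samul-tang against Sagunja-tang (2 and 2). With the low-dose groups averaged as comparator, counts at 500 µg/mL were 5 with Astragali Radix (1), 9 with Cnidii Rhizoma (3) and 7 with Sagunja-tang (2), and 9 log2 fold changes turned positive: TXNRD1 (0.24) and SRXN1 (0.24) with Astragali Radix, PRDX1 (0.16) with Cnidii Rhizoma, TXNRD1 (0.18) and SRXN1 (0.24) with Rehmanniae Radix Preparata, PRDX1 (0.18) with Sagunja-tang, and TXNRD1 (0.23), SRXN1 (0.24) and PRDX1 (0.0045) with Samul-tang. Without a filter on low counts, counts at 100 µg/mL were 1 with Astragali Radix (0), 2 with Cnidii Rhizoma (1), 1 with Rehmanniae Radix Preparata (0), 1 with Sagunja-tang (2) and 1 with Samul-tang (2). DESeq2 called 2 with Cnidii Rhizoma at 100 (1) and 4 with Sagunja-tang at 500 µg/mL (2). The cause of these moves was not tested, beyond the fewer samples or other genes that each fit holds by construction.

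Leaving out 1 library gave 1 to 3 called genes for Cinnamomi Cortex at 100 and 1 to 3 at 20 µg/mL, 0 to 1 and 0 to 2 for Astragali Radix at 100 and 20, 2 to 3 and 0 to 1 for Cnidii Rhizoma at 500 and 100, 4 to 6 and 1 to 3 for Rehmanniae Radix Preparata at 500 and 20, 0 to 3 and 2 to 4 for Sagunja-tang at 100 and 20, and 4 to 5, 0 to 2 and 3 to 5 for Samul-tang at 500, 100 and 20 µg/mL. It gave 1 to 2, 4 to 6, 5 to 7, 5 to 7 and 4 to 7 for the trends of Astragali Radix, Cnidii Rhizoma, Rehmanniae Radix Preparata, Sagunja-tang and Samul-tang, 1 to 2 for each of the set 5 and set 7 pairs, and 3 to 5 for Cinnamomi Cortex at 100 against 20 µg/mL. For the Cinnamomi Cortex trend minus that of Astragali Radix, Cnidii Rhizoma, Rehmanniae Radix Preparata, Sagunja-tang and Samul-tang it gave 8 to 9, 8 to 10, 7 to 9, 6 to 8 and 9 to 10. Of 2760 values per gene without 1 library, 149 lost and 13 gained a call, and no called value changed sign. Equal replicate numbers did not pair the libraries: the correlation of deviations ran from -0.102 to 0.084 between treated groups and vehicle, from -0.118 to 0.18 within sets and from -0.17 to 0.205 between sets, and no pair of groups had all its correlations over 0.1. With the replicate number as a block, 327 of 330 results per gene and comparison stayed on the same side of the threshold; NQO1 with Cinnamomi Cortex and PIR with Samul-tang at 100 µg/mL missed the threshold (adjusted p = 0.0512 each), which leaves 1 call for Samul-tang (2), and PRDX1 with Cinnamomi Cortex at 20 µg/mL passed (0.0472). At this depth the smallest log2 change called was 0.09, a trend per dose step.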
